A study of Mus musculus with 15 samples.

Results

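The glucocorticoid receptors and 7 genes known for responding to glucocorticoids were described across 15 mouse brain libraries. The members were the rows of the deposited count table whose mouse symbol was Nr3c1, Nr3c2, Sgk1, Tsc22d3, Plin4, Fkbp5, Zbtb16, Cdkn1a or Ddit4, which made 9 of 46078 genes. The rule uses symbols, but these genes were picked with earlier results of the same data known, and the counts of members given here carry that choice. RNA was taken from a dissected region of 1 hemisphere of each perfused mouse. The labels call it brain and do not name the region. The 3 groups were 5 APP-PS1 mice given an anti-CD8a antibody, 5 APP-PS1 mice given PBS and, also given PBS, 5 wild-type (WT) animals. The APP-PS1 line (APP Swedish PS1 dE9) models Alzheimer's disease. These mice express mutant amyloid precursor protein, as a mouse/human chimera (Mo/HuAPP695swe), together with human presenilin 1 carrying the dE9 mutation. Both transgenes are driven by the prion protein promoter and directed to neurons, and the APP-PS1 mice given PBS carry them as well. Mice were 12 months old, and treatment ran for 4 weeks with 10 injections of 0.8 mg antibody each; controls received 100 µL of PBS. CD8a is a co-receptor on cytotoxic T cells. The labels also mention an isotype control antibody, which was not analysed here. By label the anti-CD8a group held 3 males and 2 females, the APP-PS1 PBS group 3 males and 2 females, and the WT PBS group 1 male and 4 females. In such bulk tissue fewer cells of a type and less RNA per cell cannot be told apart.

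Glucocorticoids are steroid hormones of the adrenal cortex, corticosterone in mice, whose secretion follows the time of day and rises with stress. In the brain they bind a pair of nuclear receptors, the mineralocorticoid receptor at low hormone levels and the glucocorticoid receptor at higher ones. Both leave a chaperone complex built on HSP90, enter the nucleus and bind glucocorticoid response elements, which are palindromes whose arms are spaced by a few bases. Fkbp5 encodes a co-chaperone that lowers the receptor's affinity for hormone and is itself induced, which makes a short feedback loop. Hormone levels were not measured in these files.

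The libraries held between 17736524 and 36485809 counts assigned to genes, and 3 counts in those totals corresponded to between 0.0822 and 0.169 CPM. All levels are given in CPM, the count scaled to library size, with TMM factors. The floor of 3 counts covers counting error only. Markers of neurons, astrocytes and oligodendrocytes were present in all libraries, and no marker of the 16 cell type lists was at 0 in all of them. Ttr, which the choroid plexus makes in large amounts, lay between 1652 and 6468 CPM in 5 libraries and between 20.7 and 107 CPM in the other 10. The 5 were anti-CD8a replicate 1, APP-PS1 PBS replicates 2 and 5 and WT PBS replicates 3 and 5. Xist and Y-linked genes matched the labelled sex in 14 libraries, and APP-PS1 PBS replicate 1, labelled male, had the female pattern. The animal numbers in the sample titles start with 83 or 85, and every group holds 3 libraries of the first series and 2 of the second. What separates the number series is not stated.

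In APP-PS1 mice given anti-CD8a, 6 of the 7 response genes had lower estimates than in APP-PS1 mice given PBS, with unadjusted p under 0.05, and the receptors had slightly higher ones. The difference was widest for Plin4, Sgk1 and Tsc22d3, while the Ddit4 estimate was smaller than its standard error. By edgeR's quasi-likelihood test with Benjamini-Hochberg adjustment, 0 of 9 members were called against 0% of all 18974 genes tested, and the smallest adjusted p of any member was 0.223. DESeq2 called 1 of 9 members, Sgk1, against 1.04% of the 13807 genes to which it gave an adjusted p. At an unadjusted p under 0.05 in edgeR, 6 of 9 members were lower, against 5.74% of all genes, and 0 of 9 were higher, against 7.59%. The CPM ranges of the groups did not overlap for 1 of 9 members on the lower side, against 0.843% of all genes, and for 0 of 9 on the higher side, against 0.954%. The members' median log2 fold change was -0.36, beside 0.02 for all genes tested.

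The count of 6 at an unadjusted p under 0.05 was also reached without the 5 libraries rich in Ttr (3.54% of all genes lower at that p), with a choroid plexus score as a covariate (4.93%) and with the animal number series as a covariate (6.39%). It was 3 without APP-PS1 PBS replicate 2 (4.33%) and 3 without APP-PS1 PBS replicate 4 (7.13%), where Sgk1, Tsc22d3 and Plin4 were left. It was 4 when sex was taken from Xist and Y genes instead of the labels (6.89%) and 4 with the 2 groups fitted alone (6.03%). For Sgk1, Tsc22d3 and Plin4 the unadjusted p stayed under 0.05 in all 25 alternatives, for Cdkn1a in 23, for Zbtb16 in 16 and for Fkbp5 in 13. On the higher side Nr3c1 reached that p in 2 of the 25 and Nr3c2 in 4.

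No member passed a test between APP-PS1 mice given PBS and WT mice given PBS. Both edgeR (1.03% of all genes called) and DESeq2 (1.94%) called 0 of 9. At an unadjusted p under 0.05, 0 members were lower (6.02% of all genes) and 0 higher (5.43%), and the CPM ranges overlapped for all 9 (1.06% of all genes had ranges apart on the lower side and 1.83% on the higher side). The members' median log2 fold change was -0.01, as it was over all genes. Over the 25 alternatives Sgk1 was higher at an unadjusted p under 0.05 in 6, Plin4 and Cdkn1a were higher in 1 each, and Ddit4 was lower in 2.

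In anti-CD8a-treated APP-PS1 mice set against WT mice given PBS, 7 of 9 members had lower estimates and none passed. The edgeR test called 0 of 9 (1.94% of all genes) and DESeq2 0 of 9 (2.81%). At an unadjusted p under 0.05, 4 of 9 were lower, namely Tsc22d3, Plin4, Fkbp5 and Zbtb16, against 5.29% of all genes, and 0 were higher, against 6.81%. The CPM ranges overlapped for all 9, where 0.875% of all genes had lower and 2.16% higher ranges apart. The members' median log2 fold change was -0.34, beside -0.00 over all genes. The count of 4 became 1, Tsc22d3, without WT PBS replicate 1 (4.49% of all genes lower at that p) or without anti-CD8a replicate 3 (3.26%). It became 2, Tsc22d3 and Plin4, without anti-CD8a replicate 4 (5.64%) or 5 (4.06%), and 6 without WT PBS replicate 4 (4.79%). Any 2 of the 3 comparisons share a group of libraries.

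**Figure D1:**
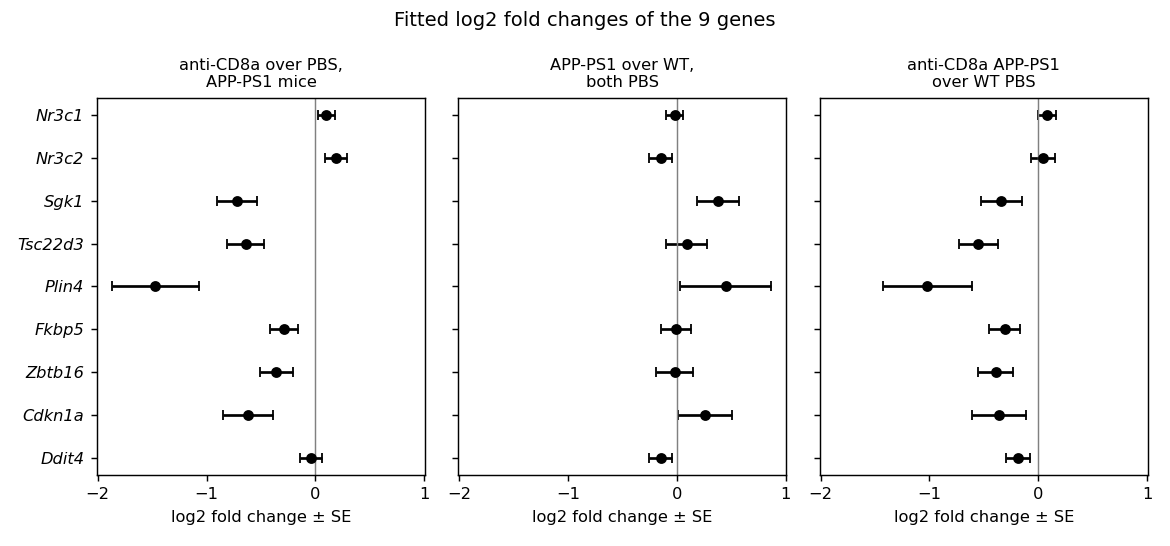
Fitted log2 fold changes (points) with standard errors (bars) of the 9 genes from edgeR's model of group and labelled sex, in 3 comparisons. Against PBS in APP-PS1 mice, Plin4 (-1.47), Sgk1 (-0.72), Tsc22d3 (-0.64) and Cdkn1a (-0.62) lie farthest below 0, and both receptors lie just above it.

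Nr3c1 (ENSMUSG00000024431, chr18:39410545-39519421, minus strand, GRCm38) encodes the glucocorticoid receptor. It was measured at 137, 120, 142, 163 and 141 CPM in anti-CD8a mice, at 132, 131, 140, 106 and 146 CPM in APP-PS1 PBS mice and at 120, 124, 124, 133 and 139 CPM in WT PBS mice. The groups overlapped, and the lowest and highest of the 15 libraries were APP-PS1 PBS replicate 4 and anti-CD8a replicate 4. In log2 terms anti-CD8a stood 0.10 above PBS (SE 0.08, adjusted p = 0.563 in edgeR), and that of APP-PS1 over WT was -0.02 (SE 0.08). Of all members Nr3c1 had one of the smallest spreads between mice, with a coefficient of variation of 10.9% in anti-CD8a, 11.6% in APP-PS1 PBS and 6.28% in WT PBS mice.

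Nr3c2 (ENSMUSG00000031618, chr8:76899442-77245012, plus strand) encodes the mineralocorticoid receptor, which in the brain is known for its high level in the hippocampus. It had 183, 188, 214, 193 and 217 CPM in anti-CD8a mice, 178, 151, 207, 142 and 193 CPM in APP-PS1 PBS mice and 170, 194, 164, 225 and 202 CPM in WT PBS mice. The gene overlaps Gm10649, Gm24838 and Gm23260. All 3 ranges overlapped, and 2 of the 5 anti-CD8a libraries lay above all APP-PS1 PBS libraries. Over PBS the estimate in anti-CD8a mice was 0.19 on the log2 scale (SE 0.10, adjusted p = 0.423 in edgeR). Hippocampal neuron markers had higher estimates for 9 of 9 genes (median log2 fold change 0.25). Of these, 5 were at an unadjusted p under 0.05 (7.59% of all genes higher at that p) and 0 were called in edgeR. Their summed levels were 671 to 804 CPM in anti-CD8a, 581 to 649 CPM in APP-PS1 PBS and 636 to 747 CPM in WT PBS mice. Their part in the Nr3c2 estimate was not tested. Against WT the log2 fold change of Nr3c2 was -0.15 (SE 0.11) in APP-PS1 mice given PBS and 0.04 (SE 0.11) in those given anti-CD8a.

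To compare levels between genes, CPM were divided by the length of each gene's merged exons in kilobases. Any exons not used in these brains add to that length, 9468 bases for Fkbp5 and 1755 for Ddit4, and lower the value per kb. On that scale Ddit4 was highest with a mean of 31 CPM per kb (SD 4.28 over 15 libraries), followed by Sgk1 with 30.4 (SD 8.69) and Nr3c2 with 29 (SD 3.7). These 3 did not separate, since Ddit4 lay above Sgk1 in 8 of 15 libraries and Sgk1 above Nr3c2 in 8 of 15. Tsc22d3 followed with 23.6 CPM per kb, Zbtb16 with 20.8 and Nr3c1 with 17.3. Below a gap came Fkbp5 with 7.89 CPM per kb, which was under Nr3c1 in 15 of 15 libraries, then Plin4 with 4.68 and Cdkn1a with 3.57. Plin4 lay under Fkbp5 in 13 of 15 libraries and above Cdkn1a in 10 of 15. The level of the mineralocorticoid receptor transcript thus stood above that of the glucocorticoid receptor transcript per unit of length, at 30.7 against 18.3 CPM per kb in anti-CD8a mice, 26.9 against 17.1 in APP-PS1 PBS mice and 29.5 against 16.6 in WT PBS mice.

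**Figure D2:**
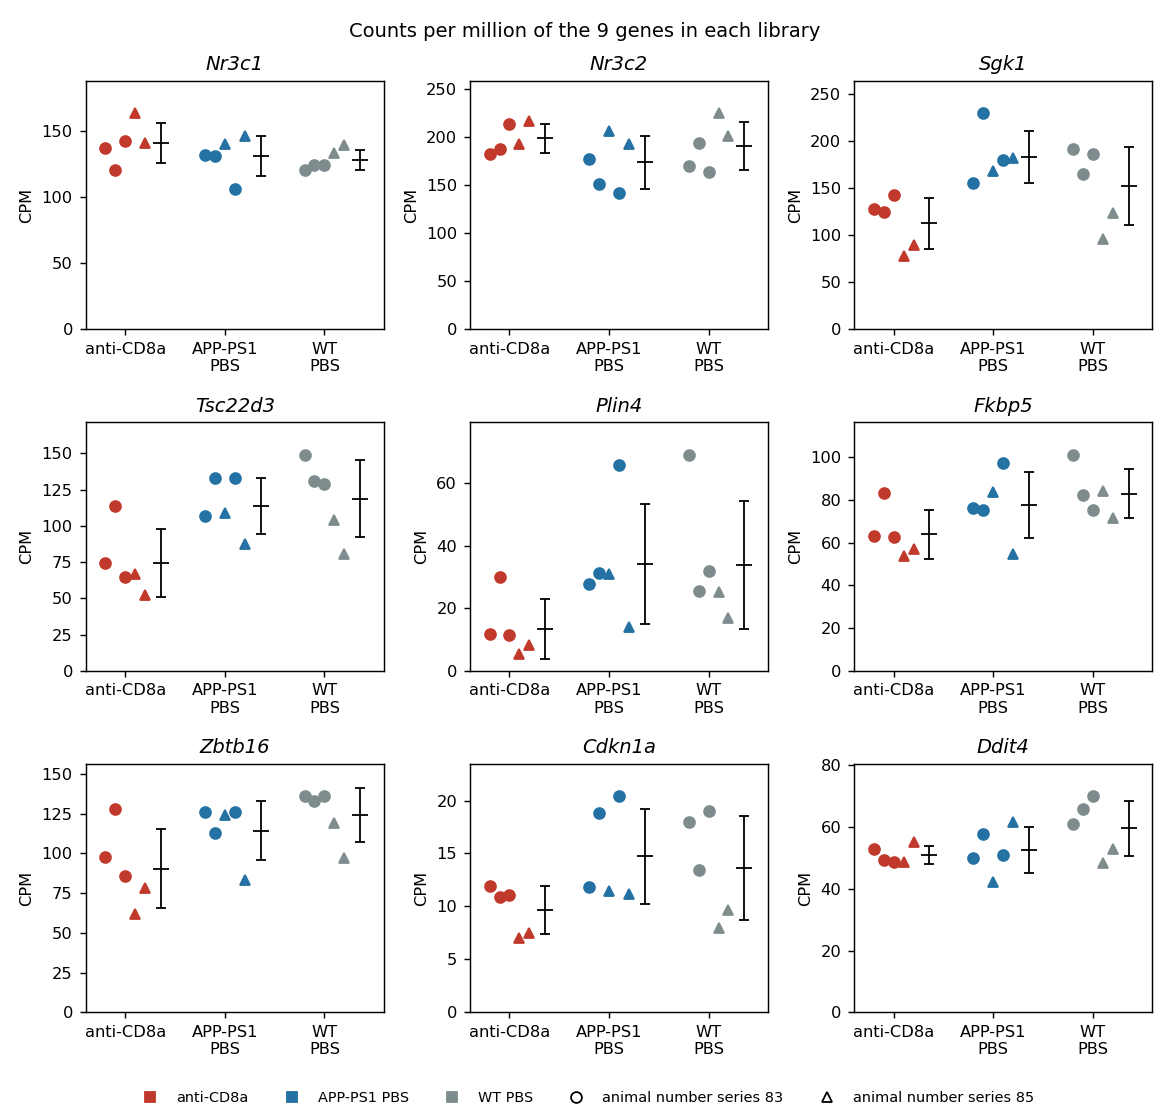
CPM of the 9 genes in each of the 15 libraries, by group, with circles for animal number series 83 and triangles for series 85; bars give the mean and SD of 5 libraries. For Sgk1 the 5 anti-CD8a libraries lie between 77.6 and 142 CPM, below the 155 to 229 CPM of the APP-PS1 PBS libraries; in the other panels the groups overlap.

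Sgk1 encodes a kinase, induced by serum and glucocorticoids, that regulates ion channels and transporters. Of the 7 members whose promoters could be matched it was the only one with a full glucocorticoid response element in the windows searched. Those letters are shown here with the values. RefSeq gives Sgk1 6 transcription starts in build GRCm38.p6, and windows from 250 bases before to 50 bases after each start were searched. Elements farther from a start were not searched for in any member. The element searched was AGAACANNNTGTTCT, where N is any base, together with a looser core, GNACANNNTGTNC, that can lie inside it, and the single arm TGTTCT, all on both strands. The full element was present in 3 of 32544 promoter windows of the RefSeq table (0.00922%), the core in 155 (0.476%) and an arm in 6157 (18.9%). The window of Sgk1 that holds the full element is chr10:21993640-21993939 on the plus strand. The element itself lies at chr10:21993701-21993715, 189 bases before that start and 965 bases before the start of the most downstream window. Capitals mark the arms and the element.
Sgk1: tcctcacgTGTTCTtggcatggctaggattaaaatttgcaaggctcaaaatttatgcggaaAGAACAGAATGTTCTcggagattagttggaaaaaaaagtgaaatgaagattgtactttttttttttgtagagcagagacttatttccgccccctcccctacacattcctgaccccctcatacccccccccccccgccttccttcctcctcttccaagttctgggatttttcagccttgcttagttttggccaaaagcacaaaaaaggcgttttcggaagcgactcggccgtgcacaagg
Zbtb16 and Nr3c1 are named only. The other promoter windows that could be matched were those of Tsc22d3 (3 windows), Cdkn1a (2) and Nr3c2, Plin4, Fkbp5 and Ddit4 (1 each), so Sgk1 had the most windows searched. Of these, only Tsc22d3 held an arm, in its window chrX:140600473-140600772 on the minus strand. It is printed for comparison, with the arm in capitals, beside the Plin4 window chr17:56109733-56110032 on the minus strand, which holds none of the 3 motifs and belongs to the member with the widest difference.
Tsc22d3: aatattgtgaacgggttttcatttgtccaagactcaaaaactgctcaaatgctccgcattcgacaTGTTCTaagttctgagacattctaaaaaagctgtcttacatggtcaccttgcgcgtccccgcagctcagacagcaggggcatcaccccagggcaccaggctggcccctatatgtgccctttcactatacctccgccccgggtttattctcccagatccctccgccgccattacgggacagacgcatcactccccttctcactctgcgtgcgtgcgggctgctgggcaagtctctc
Plin4: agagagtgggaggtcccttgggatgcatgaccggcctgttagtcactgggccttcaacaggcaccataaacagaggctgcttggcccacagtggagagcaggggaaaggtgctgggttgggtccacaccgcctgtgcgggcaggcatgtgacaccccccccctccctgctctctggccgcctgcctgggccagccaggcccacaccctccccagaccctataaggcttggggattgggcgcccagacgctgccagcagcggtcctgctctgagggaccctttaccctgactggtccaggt
Counts were made per gene, so the start used in these brains is not known. A match is a run of letters and not a measured binding site. Of the other genes with the full element, Acnat2 had 12 counts in all 15 libraries together and was not tested. Of 145 genes with the core, 59 were tested, the member Sgk1 among them. Against PBS in APP-PS1 mice, 35 of those 59 had lower and 24 higher estimates with a median of -0.04, and 59.3% were lower beside 45.9% of all genes. At an unadjusted p under 0.05 there were 8 lower, Sgk1 included (5.74% of all genes), and 3 higher (7.59%), and 0 passed in edgeR.

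Levels of Sgk1 (ENSMUSG00000019970, chr10:21882184-21999903) came to 128, 125, 142, 77.6 and 89.8 CPM in anti-CD8a mice, 155, 229, 168, 180 and 182 CPM in APP-PS1 PBS mice and 191, 165, 186, 96.3 and 123 CPM in WT PBS mice. The highest anti-CD8a library lay below the lowest APP-PS1 PBS library, while the WT PBS libraries reached into both ranges. Sgk1 averaged 113 ± 27.4 CPM in anti-CD8a, 183 ± 28.1 CPM in APP-PS1 PBS and 152 ± 41.3 CPM in WT PBS mice (SD, n = 5 each). On the log2 scale anti-CD8a differed from PBS by -0.72 (SE 0.18), which is 0.61 times the level in PBS mice. Its unadjusted p of 0.000921 in edgeR ranked 70th of 18974 genes and gave an adjusted p of 0.223, while DESeq2 called the gene (adjusted p = 0.036). Over the 25 alternatives the adjusted p ranged from 0.036 to 0.513. Against WT the log2 fold changes were 0.38 (SE 0.19, adjusted p = 0.463 in edgeR) in APP-PS1 mice given PBS and -0.34 (SE 0.19, adjusted p = 0.489 in edgeR) in those given anti-CD8a.

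Tsc22d3 (ENSMUSG00000031431, chrX:140539528-140600659, minus strand) encodes GILZ, an anti-inflammatory leucine zipper protein induced by glucocorticoids. It had 74.3, 114, 64.8, 66.5 and 52.2 CPM in anti-CD8a mice, 107, 133, 109, 133 and 87.5 CPM in APP-PS1 PBS mice and 149, 131, 129, 104 and 80.8 CPM in WT PBS mice. In 4 of 5 anti-CD8a libraries the level was below every library of both other groups, and anti-CD8a replicate 2 lay inside their ranges. In log2 terms the estimates were -0.64 (SE 0.17, adjusted p = 0.223 in edgeR) over PBS-given APP-PS1 mice and -0.55 (SE 0.18, adjusted p = 0.195 in edgeR) over WT. Without anti-CD8a replicate 2 the difference from WT was -0.79 with an adjusted p of 0.0339 in edgeR. With the number series as a covariate it was -0.61 with an adjusted p of 0.0382, and over the 25 alternatives the adjusted p ranged from 0.0339 to 0.616. APP-PS1 mice given PBS and WT mice averaged 114 and 119 CPM.

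Plin4 (ENSMUSG00000002831, chr17:56100591-56109803, minus strand) encodes perilipin 4, a coat protein of lipid droplets best known from fat tissue. Its levels were 11.9, 29.9, 11.4, 5.3 and 8.27 CPM in anti-CD8a mice, 27.7, 31.3, 31.1, 66 and 14.1 CPM in APP-PS1 PBS mice and 69.1, 25.6, 31.9, 25.2 and 16.9 CPM in WT PBS mice. Again 4 of 5 anti-CD8a libraries lay below all libraries of the other groups and replicate 2 did not. Over PBS the log2 fold change was -1.47 (SE 0.40), or 0.36 times the level in PBS-given APP-PS1 mice, with an adjusted p of 0.223 in edgeR. Over WT it was -1.02 (SE 0.41, adjusted p = 0.317 in edgeR). Plin4 varied most between mice of 1 group, with a coefficient of variation of 72.1% in anti-CD8a, 56.4% in APP-PS1 PBS and 60.6% in WT PBS mice. The gene overlaps Hdgfl2 on the opposite strand, and as no source used here states whether counting used strand, reads of the pair may not be told apart. In APP-PS1 PBS and WT PBS mice the means were 34 and 33.7 CPM, and the fitted difference was 0.45 (SE 0.42) with labelled sex in the model and 0.021 without it.

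Fkbp5 (ENSMUSG00000024222, chr17:28399094-28517527, minus strand), the co-chaperone of the feedback loop, had 63, 83.2, 62.6, 53.5 and 56.9 CPM in anti-CD8a mice, 76.3, 75.1, 83.8, 97.4 and 54.8 CPM in APP-PS1 PBS mice and 101, 82.3, 75.2, 84.1 and 71.4 CPM in WT PBS mice. Here 1 of 5 anti-CD8a libraries was below all APP-PS1 PBS libraries, and 4 of 5 were below all WT PBS libraries. Its log2 estimate over PBS was -0.29 (SE 0.13, adjusted p = 0.359 in edgeR), and over the 25 alternatives the adjusted p ranged from 0.19 to 0.586. Without the 5 libraries rich in Ttr the estimate was -0.50 (SE 0.10). Fkbp5 overlaps Gm22146 on the opposite strand.

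Zbtb16 (ENSMUSG00000066687, chr9:48654297-48836222, minus strand) encodes the zinc finger repressor PLZF, which glucocorticoids induce in several cell types. It had 98, 128, 85.8, 61.7 and 78.1 CPM in anti-CD8a mice, 126, 113, 124, 126 and 83 CPM in APP-PS1 PBS mice and 136, 133, 136, 119 and 97.1 CPM in WT PBS mice. The ranges overlapped, and anti-CD8a replicate 2 was above all APP-PS1 PBS libraries while 2 others were below them. The log2 fold change over PBS was -0.36 (SE 0.15, adjusted p = 0.342 in edgeR), with a range of 0.162 to 0.573 over the alternatives. It was -0.61 (SE 0.15) without the 5 libraries rich in Ttr. Over WT it was -0.39 (SE 0.16, adjusted p = 0.345 in edgeR).

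Cdkn1a and Ddit4 answer to other signals as well, Cdkn1a, the cell cycle inhibitor p21, to p53, and Ddit4, also called REDD1, an inhibitor of mTORC1, to hypoxia and stress. Cdkn1a (ENSMUSG00000023067, chr17:29090976-29100727, plus strand) had 11.9, 10.9, 11.1, 6.99 and 7.45 CPM in anti-CD8a mice, 11.8, 18.8, 11.5, 20.4 and 11.2 CPM in APP-PS1 PBS mice and 18, 13.4, 19, 7.92 and 9.7 CPM in WT PBS mice. In 4 of 5 anti-CD8a libraries it was below all APP-PS1 PBS libraries, and the WT PBS range covered most of both. The log2 fold change over PBS was -0.62 (SE 0.23, adjusted p = 0.301 in edgeR). Ddit4 (ENSMUSG00000020108, chr10:59949669-59951834, minus strand) was the exception among the response genes. Its levels were 52.8, 49.2, 48.7, 48.8 and 55.1 CPM in anti-CD8a mice, 49.9, 57.9, 42.3, 51.1 and 61.7 CPM in APP-PS1 PBS mice and 60.9, 65.8, 70, 48.3 and 53 CPM in WT PBS mice. The anti-CD8a range lay inside the APP-PS1 PBS range, with a log2 fold change of -0.04 (SE 0.10), whose sign turned in 4 of 25 alternatives.

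For 6 response genes, all but Ddit4, the mean of the series 85 libraries was below that of the series 83 libraries in each of the 3 groups. Sgk1 averaged 83.7 CPM in the series 85 and 132 CPM in the series 83 libraries of the anti-CD8a group, 175 and 188 CPM in those of the APP-PS1 PBS group, and 109 and 181 CPM in those of the WT PBS group. Cdkn1a averaged 7.22 and 11.3 CPM, 11.3 and 17 CPM, and 8.81 and 16.8 CPM in the same order. The receptors lay the other way, with Nr3c2 at 205 and 195 CPM, 200 and 157 CPM, and 213 and 176 CPM. A test of series 85 over 83, chosen after the data were seen, was fitted in edgeR over all genes beside group and labelled sex. It called 0 of 9 members, against 0% of all genes in either direction. At an unadjusted p under 0.05, 5 of 9 members were lower, against 6.34% of all genes, and 2 of 9 were higher, against 5.19%. The log2 differences of series 85 over 83 were -0.70 (SE 0.13, adjusted p = 0.192 in edgeR) for Cdkn1a, -0.46 (SE 0.11) for Sgk1, -0.42 (SE 0.12) for Tsc22d3, -0.84 (SE 0.32) for Plin4 and -0.36 (SE 0.11) for Zbtb16. They were 0.16 (SE 0.05) for Nr3c1 and 0.25 (SE 0.07) for Nr3c2.

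Both series are in every group in the same number, and the difference from PBS had the same sign in each for 6 response genes. Anti-CD8a minus PBS, in mean log2 CPM, was -1.07 within series 85 and -0.50 within series 83 for Sgk1, -0.73 and -0.59 for Tsc22d3, -1.65 and -1.27 for Plin4, -0.30 and -0.25 for Fkbp5, -0.55 and -0.24 for Zbtb16 and -0.65 and -0.55 for Cdkn1a. For Ddit4 it was 0.02 and -0.07. With the series as a covariate the fitted differences from PBS were -0.74 (SE 0.13) for Sgk1 and -0.63 (SE 0.13) for Tsc22d3, and no member passed.

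**Figure D3:**
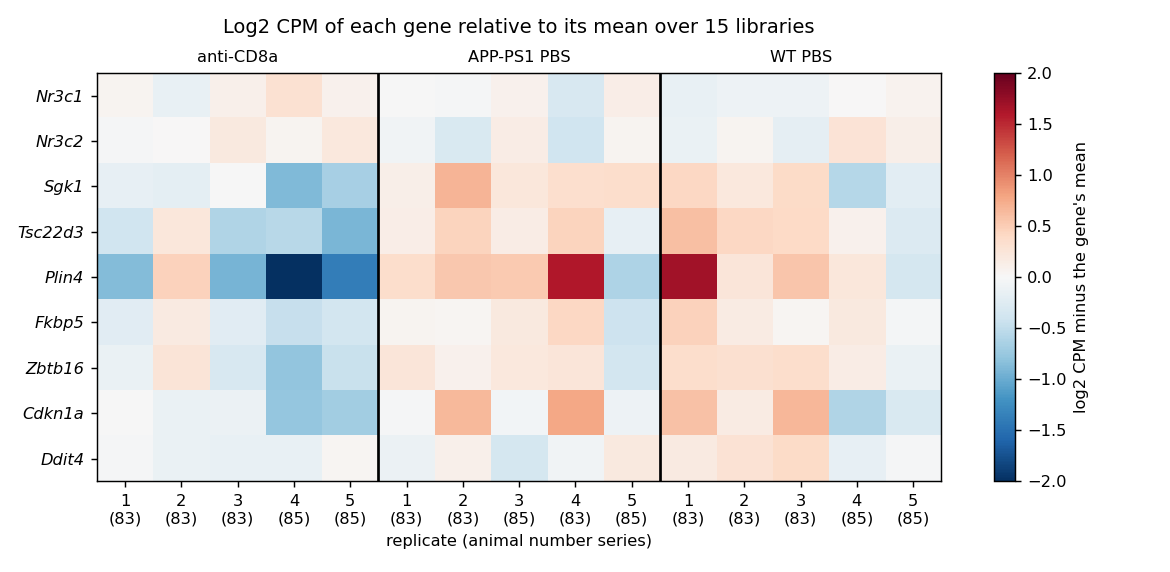
Log2 CPM of each gene minus its mean over 15 libraries (colour), with libraries in columns by group and replicate and the animal number series in brackets. Tsc22d3, Plin4, Fkbp5 and Zbtb16 share their high and low libraries, among them high values in WT PBS replicate 1 and low ones in anti-CD8a replicates 4 and 5, while the receptors show the opposite sign in many of the same libraries.

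Between mice the response genes varied together. Pearson correlations of log2 CPM over 15 libraries were computed for all 36 pairs of members, with permutation p-values (100000 permutations, adjusted over the 36 pairs). Libraries were permuted without regard to group or number series, so shifts that genes share between groups or series can lower these p-values. No share over pairs of all genes is given here, so the counts of pairs have no background to be read against. Of 21 pairs of response genes, 14 passed an adjusted p of 0.05, and the median r was 0.71. It was 0.57 with group means removed (18 of 21 positive), 0.60 within series 83 (21 positive) and 0.60 within series 85 (17 positive, lowest -0.68). Plin4 and Fkbp5 had r = 0.94 and Spearman's rho = 0.81 (permutation p = 1e-05, the smallest that can be given, adjusted 9e-05, and p = 0.00042 for rho). That r was 0.91 without the 2 libraries farthest from the median of Plin4, 0.96 within series 83, 0.89 within series 85 and 0.93 with the group means removed. Tsc22d3 and Plin4 had r = 0.91 and rho = 0.93 (permutation p = 2e-05 and 1e-05, adjusted 0.00014 and 0.00036), and 0.92 without the 2 farthest libraries. Sgk1 was most closely tied to Cdkn1a, with r = 0.90 and rho = 0.86 (permutation p = 1e-05 and 2e-05, adjusted 9e-05 and 0.00036), 0.87 within series 83 and 0.99 within series 85. Sgk1 and Fkbp5 had r = 0.48 (permutation p = 0.073), and 0.10 without the 2 farthest libraries. Ddit4 stood apart, with r from -0.00 to 0.48 with the other response genes and no adjusted p under 0.05.

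The receptors varied against their response genes. All 14 correlations of a receptor with a response gene were negative, with a median of -0.65, and 9 passed an adjusted permutation p of 0.05. Nr3c1 and Plin4 had r = -0.87 and rho = -0.85 (permutation p = 3e-05 and 0.00011, adjusted 0.00018 and 0.00099). That r was -0.76 without the 2 libraries farthest from the median of Nr3c1, -0.86 within series 83, -0.79 within series 85 and -0.90 with the group means removed. Nr3c2 and Cdkn1a had r = -0.85 and rho = -0.80 (permutation p = 0.00014 and 0.0008, adjusted 0.00046 and 0.0026), -0.86 within series 83 and -0.30 within the 6 libraries of series 85. Within series 85, 5 of the 14 correlations were positive, all with Nr3c2 except that of Nr3c1 with Ddit4. The values of a pair come from the same library and share its scaling and its tissue makeup, and their part was not tested. For the receptor pairs too, no share over pairs of all genes is given beside the counts.

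**Figure D4:**
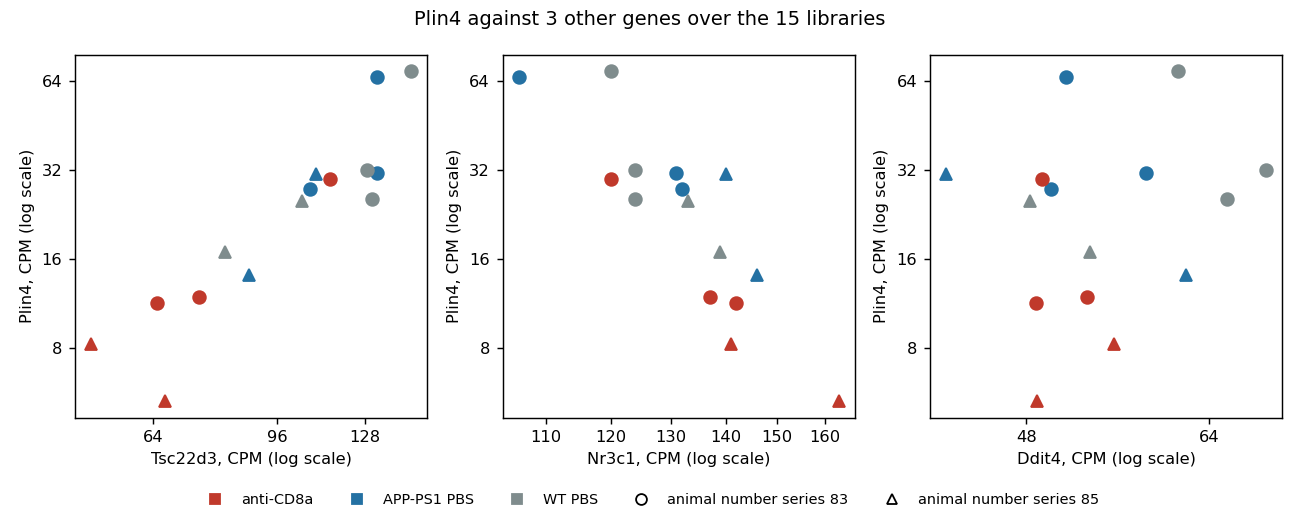
Plin4 in CPM (vertical, log scale) against Tsc22d3, Nr3c1 and Ddit4 in CPM (horizontal, log scale) over 15 libraries, by group and animal number series. Plin4 follows Tsc22d3 (r = 0.91), runs against Nr3c1 (r = -0.87) and shows no clear relation to Ddit4 (r = 0.17).

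Each member was compared with genes of a mean of at least 1 CPM (15674 genes), and other members were left out of the ranking. The non-member gene most like Tsc22d3, Plin4 and Zbtb16 over the 15 libraries was the same, Hif3a, with r of 0.943, 0.949 and 0.930. Hif3a encodes a relative of the hypoxia-inducible factors and is itself known to respond to glucocorticoids. It had 8.34, 22.5, 7.41, 3.89 and 4.09 CPM in anti-CD8a mice, 20.6, 20.2, 26.5, 34.5 and 10.9 CPM in APP-PS1 PBS mice and 26.9, 23.2, 22.2, 15 and 8.89 CPM in WT PBS mice. As for Tsc22d3 and Plin4, anti-CD8a replicate 2 was the high library of its group. Next to Hif3a came Atp10a (0.925) and Gm19439 (0.922) for Tsc22d3, Slc2a1 (0.941), the glucose transporter of the blood-brain barrier, and Gm19439 (0.936) for Plin4, and Lrrc8c (0.926) and Dio2 (0.909) for Zbtb16. The non-member genes most like Fkbp5 were Mfsd2a (0.931), a lipid transporter of brain endothelium, B3galt5 (0.917) and Gpt2 (0.913). The member Plin4 was closer to Fkbp5 (0.94).

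Sgk1 and Cdkn1a shared their closest non-member gene too. It was Plat, which encodes tissue plasminogen activator, with r of 0.908 for Sgk1 and 0.923 for Cdkn1a. Txnip (0.904) and Nfkbia (0.894) followed for Sgk1, and Arrdc2 (0.923) and Nfkbia (0.912) for Cdkn1a. For Nr3c1 the nearest genes were 2510009E07Rik (0.924), Cadm2 (0.881) and Mkx (0.876), and for Nr3c2 they were Fgf13 (0.909), Fam19a1 (0.897) and Frrs1l (0.894). The likeness was weakest for Ddit4, with Gpr3 (0.823), Zfp41 (0.820) and Plppr3 (0.754). These values describe the highest of many correlations in 15 libraries and carry no test.

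Of 21 other genes known to respond to glucocorticoids, 14 had lower and 7 higher estimates in anti-CD8a than in PBS mice, with a median log2 fold change of -0.10. Over all genes tested 45.9% of estimates were lower. At an unadjusted p under 0.05 in edgeR, 8 of the 21 were lower (5.74% of all genes) and 3 higher (7.59%). In edgeR 0 passed, and DESeq2 called 2, Hif3a and Map3k6, against 1.04% of all genes given an adjusted p. Hif3a averaged 9.26 ± 7.68 CPM in anti-CD8a and 22.5 ± 8.72 CPM in PBS-given APP-PS1 mice (log2 difference -1.47, SE 0.37, adjusted p = 0.223 in edgeR). Map3k6, a stress kinase, stood at 3.52 ± 1.29 and 5.56 ± 0.941 CPM (-0.70, SE 0.20, adjusted p = 0.229 in edgeR). The transcription factors Klf9 (-0.16, SE 0.05) and Klf15 (-0.36, SE 0.13) were lower as well by estimate. Against these, Dusp1 (0.58, SE 0.23), a phosphatase gene, Cebpb (0.41, SE 0.17) and the clock gene Per1 (0.23, SE 0.09) had higher estimates. Genes of this list, lower or higher, may also respond to other stimuli, and the cause of either direction was not tested. The metallothionein genes Mt1 (-0.05, SE 0.16) and Mt2 (-0.36, SE 0.17) and Glul, which encodes glutamine synthetase (-0.07, SE 0.07), did not pass an unadjusted p of 0.05.

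The same list was counted in the comparisons with WT. In APP-PS1 over WT mice, both on PBS, 9 of the 21 had lower and 12 higher estimates (median 0.02). At an unadjusted p under 0.05, 3 were lower (6.02% of all genes) and 1 higher (5.43%), and 0 were called by edgeR or DESeq2. Between anti-CD8a-treated APP-PS1 and WT mice 16 were lower and 5 higher (median -0.16), where 51.1% of all genes were lower. At that p 3 were lower (5.29% of all genes) and 1 higher (6.81%). There edgeR called 0 and DESeq2 called Klf9, at 152 CPM in treated and 176 CPM in WT mice (-0.20, SE 0.05).

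**Figure D5:**
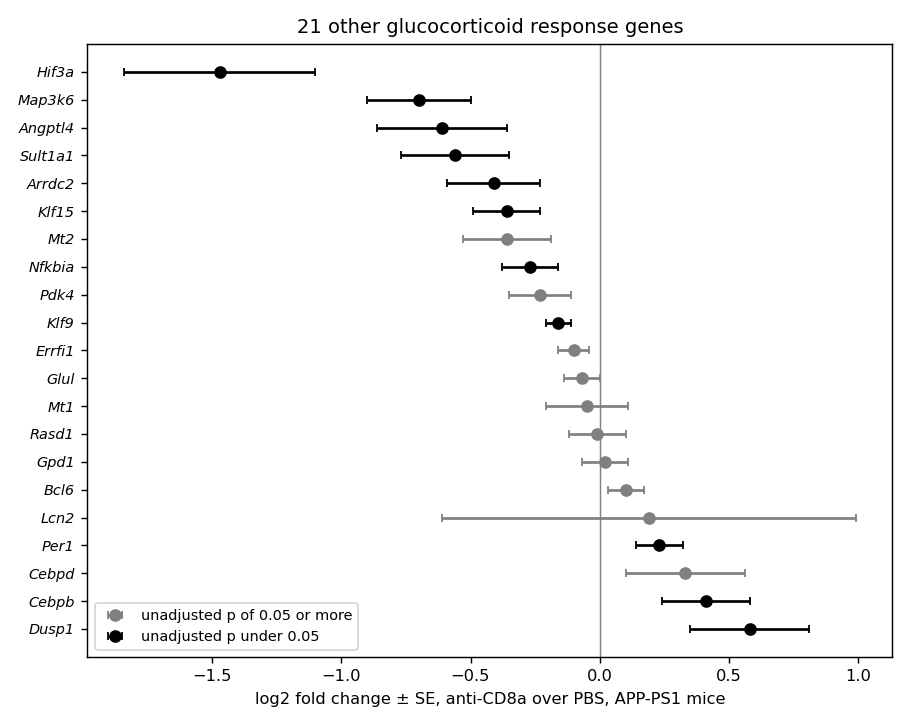
Log2 fold changes (points) with standard errors (bars) of 21 other glucocorticoid response genes, anti-CD8a over PBS in APP-PS1 mice, sorted by size. Black points, 8 below and 3 above 0, have an unadjusted p under 0.05 in edgeR; no gene passed after adjustment.

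Receptor chaperones had small differences. Of 11 genes, 8 had lower estimates in anti-CD8a than in PBS mice (median -0.07). Of these, 4 were at an unadjusted p under 0.05 (5.74% of all genes lower at that p) and 0 past the edgeR test. Hsp90aa1, the inducible HSP90, averaged 864 ± 38.9 CPM in anti-CD8a and 987 ± 41.9 CPM in PBS mice with ranges apart (-0.19, SE 0.06, adjusted p = 0.247 in edgeR) and was the 1 chaperone that DESeq2 called. Ptges3 (-0.16, ranges apart), Ppid (-0.12) and St13 (-0.12) followed. In APP-PS1 over WT mice, both on PBS, the median was -0.08 with 0 called, and between treated and WT mice all 11 had lower estimates (median -0.12), of which edgeR called 0 and DESeq2 called Hsp90aa1.

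Coregulators of the receptors, 10 genes, had medians of 0.04 over PBS, -0.01 in APP-PS1 over WT and 0.01 in treated mice over WT, with 0 past any test and 0 at an unadjusted p under 0.05 in each comparison. Of 7 genes for the conversion and transport of steroids 6 were tested. Hsd11b1, which regenerates active corticosterone, stood at 29.3 CPM in anti-CD8a and 25.5 CPM in PBS mice (0.20, SE 0.07, adjusted p = 0.282 in edgeR). The efflux pump gene Abcb1b had the smallest p of that list in treated mice over WT (0.41, SE 0.12, adjusted p = 0.134 in edgeR). No gene of the list passed in any comparison.

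Of 9 genes of stress axis peptides and receptors 6 were tested, and 1 passed, in the comparisons with WT. Crhbp, whose product binds and holds corticotropin-releasing hormone, was lower in both APP-PS1 groups than in WT mice. It averaged 19.8 CPM in anti-CD8a and 28.7 CPM in WT PBS mice (-0.51, SE 0.08, adjusted p = 0.00264 in edgeR), and 20.2 CPM in APP-PS1 PBS mice (-0.47, SE 0.08, adjusted p = 0.00723 against WT in edgeR), with ranges apart in both. Between anti-CD8a and PBS it did not differ beyond its error (-0.03, SE 0.08). Crhr1 (0.17), Crhr2 (-0.51), Crh (-0.36) and Avpr1a (-0.86) did not pass over PBS, and Crh lay at 1 CPM in anti-CD8a and 1.26 CPM in PBS mice.

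Of 15 relatives of the members by sequence, 14 were tested (median -0.04), and 9 had lower estimates over PBS. Of these, 2 were at an unadjusted p under 0.05 (5.74% of all genes lower at that p) and 0 past the test. Plin3, a widely expressed perilipin, was at 15.7 CPM in anti-CD8a and 19.6 CPM in PBS mice (-0.33, SE 0.11, adjusted p = 0.262 in edgeR), and Sgk3 at 23 and 28.3 CPM (-0.30, SE 0.11). Tsc22d1, from the same family as Tsc22d3, was at 320 and 333 CPM (-0.06, SE 0.04) and had its ranges apart in treated mice over WT (-0.17, SE 0.04, adjusted p = 0.0646 in edgeR), where DESeq2 called it. Its ranges were also apart in APP-PS1 PBS over WT PBS mice, at 333 and 356 CPM (-0.11, SE 0.04, adjusted p = 0.347 in edgeR). Pgr, the progesterone receptor gene (-0.10, SE 0.08), did not pass over PBS.

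Markers of other cell types and regions were counted in the comparison with PBS. Choroid plexus markers had lower estimates for 12 of 12 genes (median -1.87), 0 of them at an unadjusted p under 0.05, with summed levels of 66 to 2168 CPM in anti-CD8a, 83.3 to 4749 CPM in APP-PS1 PBS and 80.2 to 7412 CPM in WT PBS mice. Without the 5 libraries rich in Ttr the log2 fold changes over PBS were at least as large, at -0.75 (SE 0.19) for Sgk1, -0.76 (SE 0.18) for Tsc22d3, -1.92 (SE 0.38) for Plin4 and -0.78 (SE 0.20) for Cdkn1a, and no member passed in edgeR. With a choroid plexus score as a covariate they were -0.65 (SE 0.16) for Sgk1, -0.65 (SE 0.18) for Tsc22d3, -1.49 (SE 0.40) for Plin4 and -0.56 (SE 0.22) for Cdkn1a. Mural cell and fibroblast markers had lower estimates for 11 of 14 genes (median -0.49), with sums of 324 to 464 CPM in anti-CD8a, 341 to 580 CPM in APP-PS1 PBS and 356 to 512 CPM in WT PBS mice. Endothelial markers had 7 of 10 higher (median 0.07; 278 to 349, 262 to 323 and 262 to 306 CPM in the same order). Cerebellar markers had 5 of 5 tested lower (median -0.93; 12 to 65.4, 20.1 to 56.8 and 13.9 to 77.6 CPM), ependymal markers 7 of 7 lower (median -0.47; 9.39 to 29, 18.8 to 36.3 and 17.7 to 61.4 CPM) and blood markers 5 of 5 lower (median -0.27; 8.87 to 17.8, 11.4 to 28.4 and 8.47 to 15.1 CPM). Medians were -0.00 for astrocytes, 0.04 for oligodendrocytes, -0.05 for their precursors, 0.17 for microglia, 0.01 for neurons in general, 0.03 for cortical, -0.13 for striatal and 0.07 for thalamic neurons, and 0.89 over the 2 hypothalamic markers tested. Estimates were higher for 8 of 8 microglial markers, and lower for 6 of 7 striatal and 4 of 5 oligodendrocyte precursor markers. No ependymal, blood, striatal or precursor marker had an unadjusted p under 0.05. At that p 3 cerebellar markers were lower, 4 endothelial higher and 1 lower, and 2 mural or fibroblast lower and 1 higher. Also at that p, 2 astrocyte markers were lower, and 2 microglial, 1 oligodendrocyte, 1 general neuron and 1 hypothalamic marker were higher. Over all genes 5.74% were lower and 7.59% higher. No marker of these lists passed in edgeR over PBS, and DESeq2 called 1 endothelial, 1 mural or fibroblast and 3 hippocampal markers. The part of mural, endothelial, ependymal, cerebellar, blood, microglial, striatal and precursor content in the members' estimates was not tested.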

How the data were processed

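RNA-seq libraries of 15 mouse brains were analysed from the table of read counts per gene that the authors deposited. The submitters' processing notes name FastQC, Bowtie2 2.2.2, HTSeq 0.11.2, DESeq2 and the build GRCm38, without roles. Per the labels' protocols the libraries were poly(A)-selected and stranded; no source used here states the annotation release or whether counting used strand. Of 46078 gene identifiers, 45143 were matched to a symbol, and 0.101% of counts lay in genes without one. The 5 HTSeq summary lines were left out of library sizes; relative to all reads reads outside any gene made up 19.966 to 25.854%, ambiguous reads 1.635 to 1.787% and reads with several alignments 2.699 to 2.917%.

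Counts were tested with edgeR 4.0.16 (R 4.3.3), using TMM scaling, filterByExpr (18974 genes), a quasi-likelihood model of group and labelled sex over all 15 libraries (11 residual degrees of freedom) and Benjamini-Hochberg adjustment at 0.05. The fit was tested on simulated data. Log2 CPM used a prior count of 2. Alternatives were DESeq2 1.42.0, limma-voom 3.58.1, RLE scaling, no filter, other covariates, the 2 groups alone, no libraries above 1000 CPM of Ttr, and each library left out. The labels give separate animals, and the p-values of the fits set differences against the spread between them. Positions come from GENCODE M21 (GRCm38), promoters from RefSeq (GRCm38.p6).

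Members and gene lists were chosen with earlier results of these data known. The animal number series test and covariate were chosen after seeing the data. Every member was to be named, up to 4 genes of smallest p from each list, and the 3 non-member genes most like each member. Outside that rule, Per1, Dusp1, Cebpb, Mt1, Mt2, Glul, Pgr, Mdm2, Zmat3, Vegfa, Junb and Arc were named after their values were seen.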

Additional observations from a re-analysis of the deposited data

Results flagged for a closer look

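Of 27 groups of 5 libraries, 1 for each gene and group, 2 held a library far from the others. For Plin4, anti-CD8a replicate 2 had 29.9 CPM, where the next highest library of its group had 11.9 CPM and the lowest 5.3 CPM, a gap of 0.73 of the group's range, beyond Dixon's limit for 5 values. Plin4 in WT PBS replicate 1 stood at 69.1 CPM, with the next at 31.9 CPM and the lowest at 16.9 CPM, a gap of 0.71 of the range. Chance alone flags about 1 in 20 groups. Without anti-CD8a replicate 2 the Plin4 difference of anti-CD8a from PBS in APP-PS1 mice was -1.80 on the log2 scale, and without WT PBS replicate 1 its difference of anti-CD8a-treated from WT mice was -0.69.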

How the results depend on the processing

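In each comparison 225 member values were recomputed, 25 for each gene. The direction held in 221 for anti-CD8a against PBS in APP-PS1 mice, 213 for APP-PS1 against WT and 221 for treated APP-PS1 against WT. Against PBS, 1 member was called with DESeq2 and 1 without a filter on low counts, Sgk1 both times; over all genes 143 were called with DESeq2, 13 without the filter, 1 with the 2 groups alone and 0 to 3 with a library left out. APP-PS1 against WT gave 361 genes with DESeq2, 115 without the sex covariate and 98 without the libraries rich in Ttr. Treated APP-PS1 against WT gave 221 with the 2 groups alone, 199 without the libraries rich in Ttr and 140 to 441 with a library left out. There 1 member, Tsc22d3, was called with the number series as a covariate, and 0 to 1 with a library left out. The main fit of that comparison called 0 of 9 members and 1.94% of all genes. Signs turned for Ddit4 against PBS (0.007 with the choroid plexus score, 0.068 without the Ttr libraries, -0.11 to 0.014 left out). In APP-PS1 against WT they turned for Nr3c1 (0.034 without sex, 0.0086 with sex read from genes, 0.0009 with the number series, -0.13 to 0.057 left out), Tsc22d3 (-0.058 without sex, -0.042 to 0.29 left out), and, without the Ttr libraries, Fkbp5 (0.18; -0.12 to 0.17 left out) and Zbtb16 (0.22; -0.12 to 0.17 left out). In treated APP-PS1 against WT they turned for Nr3c2 (-0.0042 with the choroid plexus score, -0.049 without the Ttr libraries, -0.017 to 0.10 left out). The cause was not tested. The lowest members, Plin4 and Cdkn1a, had 154 to 2185 and 187 to 669 counts per library. No paired analysis was possible because the groups share no replicate numbers in the labels; the numbers used here only name libraries.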

Other observations

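Genes of other stimulus responses were counted in the same comparisons. Immediate early genes, which neurons switch on with activity, had higher estimates in anti-CD8a than in PBS-given APP-PS1 mice for 10 of 10 genes, all at an unadjusted p under 0.05, with a median log2 fold change of 0.80. Over all genes tested 7.59% were higher at that p. None of the 10 passed in edgeR, and DESeq2 called 4, Npas4, Nr4a1, Egr4 and Junb. Npas4 averaged 16 ± 2.67 CPM in anti-CD8a and 8.29 ± 2.3 CPM in PBS mice with ranges apart, and Arc 130 ± 40 and 72.2 ± 21.5 CPM. In APP-PS1 against WT mice given PBS, 9 of the 10 had lower estimates (median -0.40). Of these, 6 were at an unadjusted p under 0.05 (6.02% of all genes lower), and 0 were called by edgeR or DESeq2. These 2 comparisons share the APP-PS1 PBS libraries.

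Of 14 clock genes, 10 had higher and 4 lower estimates over PBS. At an unadjusted p under 0.05 there were 2 on each side (7.59% of all genes higher and 5.74% lower). On the lower side these were Clock (-0.13) and Npas2 (-0.31). Cry2, a repressor of the clock, averaged 114 ± 6.13 CPM in anti-CD8a and 100 ± 5.26 CPM in PBS mice with ranges apart (0.19), and was the 1 that DESeq2 called; edgeR called 0. Time of death is not in the labels. Among 11 p53 targets, 7 had higher and 4 lower estimates over PBS. At an unadjusted p under 0.05, 3 were lower (5.74% of all genes) and 1 higher (7.59%), and edgeR called 0. The lower ones were Trp53inp1 (-0.39), which DESeq2 called, Ccng1 (-0.17) and Eda2r (-0.53), and the higher one was Btg2 (0.60). Mdm2 (-0.02) and Zmat3 (0.00) were near 0. Among 10 hypoxia targets, 7 had lower and 3 higher estimates over PBS. At an unadjusted p under 0.05, 2 were lower (5.74% of all genes) and 0 higher (7.59%), and edgeR called 0. These 2 were Slc2a1 (-0.29), which DESeq2 called, and Ndrg1 (-0.20). Vegfa stood at 66.5 CPM in anti-CD8a and 65.9 CPM in PBS mice. Of 9 integrated stress response genes, 0 had an unadjusted p under 0.05 over PBS.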
